A study of Mus musculus with 48 samples.

Results

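H3K27ac, the histone acetylation that marks active enhancers and promoters, was compared between P10 and P1 sham-operated mouse hearts 3 days after surgery. The comparison took the 9 libraries, of 48 labelled samples in the series, whose titles name sham surgery at day 3: 6 of P10 and 3 of P1, with the zone of the heart as stratum. All animals were wild-type C57BL/6 mice, operated at an age of 1 day (P1) or of 10 days (P10) and killed at an age of 4 or 13 days. The labels enter myocardial infarction as the treatment of every sample, so sham status was read from the titles. A sham operation opened the chest without tying the coronary artery, so the zones named after the infarct (IZ), its border (BZ) and the remote muscle (RZ) are matched positions in uninjured hearts. From each zone of a few pooled hearts, CD45+F4/80+ mononuclear phagocytic cells (MPCs) were sorted. CoBATCH, which tags chromatin with barcodes in single cells, gave the profiles, and the cells of a library are summed here. P1 had 1 pool of hearts, labelled replicate 1, and P10 had 2, labelled replicates 2 and 3 and called pool 2 and pool 3 below. The zones of 1 pool share their hearts and are not separate animals.

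The heart is seeded before birth with macrophages from embryonic progenitors, which renew locally and carry genes such as Lyve1, Cd163, Folr2 and Gas6 for scavenging and for the removal of dead cells. Monocytes enter later. The Ly6c-high kind is made for inflammation, and the Ly6c-low kind patrols vessels. A mouse heart can regenerate muscle on the first day of life and has lost that ability by postnatal day 10, so the comparison asks how the enhancer state of its phagocytes at rest differed between both ages.

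The P1 libraries held 382250 to 727085 unique read pairs and the P10 libraries 368724 to 853744, of which 41.0% to 44.1% and 38.7% to 52.4% lay in the 27160 H3K27ac regions called from all 42 P1 and P10 libraries. Median fragment length was 187 to 195 bp in P1 and 247 to 275 bp in P10, and mitochondrial pairs made up 0.0168% to 0.0348% in P1 and 0.272% to 1.33% in P10. The read names put the P1 pool, P10 pool 2 and P10 pool 3 on separate sets of flow cells, so age at day 3 cannot be told apart from sequencing batch or pool. Unless another set is named, the p-values below rest on a spread estimated over all 42 libraries, which may be technical. Of these 42, from which the regions were also called, 21 are of sham hearts and the others of infarcted hearts. The spread between P1 pools of day 3 was not observed, since there is 1 such pool. The RZ library of P10 pool 2 stood apart from the other 5 P10 libraries with the highest mitochondrial share and the lowest signal at several genes, and values that rest on it are given with and without it. Leaving out the P1 library of a zone takes that zone out of the comparison, and such a value is given below where it moved by more than 1.5 times. Only P10 pool 2 held lines written more than once (15.7% to 20.1%), which were dropped. Markers common to macrophages, such as Adgre1 (137 to 184 CPM, a scaled unit explained below), had signal in every library. Of the 10 genes of that list, 5 lay above and 5 below 0, with a median log2 difference of 0.02.

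The sequences of 3 regions that the results turn on are shown here, each as the 300 bases around the middle of the strongest 500 bp bin of the region (mm10, plus strand). The region at Irf1 (chr11:53763601-53763900) was shown as an example of the regions named below whose P1 and P10 libraries did not overlap. Those at Clasp2, Rnf150 and Tmem120a, among others, did not overlap either and are not shown. The regions at Med11 (chr11:70452101-70452400) and Fkbp5 (chr17:28522601-28522900) were shown because their age difference itself differed between days. Capitals mark a match to the KLF motif GGGTGTGG, the only match to any of the 11 motifs searched that these 3 sequences held.
Irf1: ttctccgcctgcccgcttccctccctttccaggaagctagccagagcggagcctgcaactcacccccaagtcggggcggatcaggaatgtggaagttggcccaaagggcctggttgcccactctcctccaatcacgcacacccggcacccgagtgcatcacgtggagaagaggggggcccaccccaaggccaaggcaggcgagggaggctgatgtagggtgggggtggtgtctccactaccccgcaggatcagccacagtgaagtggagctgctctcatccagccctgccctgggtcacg
Med11: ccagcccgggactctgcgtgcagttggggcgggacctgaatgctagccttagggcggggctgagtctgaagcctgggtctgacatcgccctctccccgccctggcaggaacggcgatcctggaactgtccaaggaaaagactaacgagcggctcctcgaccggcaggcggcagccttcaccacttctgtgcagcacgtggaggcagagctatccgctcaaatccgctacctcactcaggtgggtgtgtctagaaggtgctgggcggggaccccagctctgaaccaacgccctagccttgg
Fkbp5: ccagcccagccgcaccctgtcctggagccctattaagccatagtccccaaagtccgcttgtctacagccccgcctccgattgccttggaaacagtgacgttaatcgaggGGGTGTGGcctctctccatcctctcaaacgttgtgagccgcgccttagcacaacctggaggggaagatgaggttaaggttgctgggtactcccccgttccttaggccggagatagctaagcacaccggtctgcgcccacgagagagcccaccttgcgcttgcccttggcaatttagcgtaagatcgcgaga
The KLF motif, searched on both strands, was held by 4.19% of the 12490 regions tested, and a match is a description of the letters and no sign of binding.

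Gene windows, which sum the pairs in regions from 50 kb before a gene to 30 kb behind it, gave no window with an adjusted p under 0.05 between P10 and P1 sham hearts at day 3 (0 of 10159 tested, 0%; limma voom with the pool of hearts as a random effect, Benjamini-Hochberg adjustment, two-sided). The smallest adjusted p was 0.141. At an unadjusted p under 0.05, 362 windows (3.56%) had more signal in P10 and 691 (6.8%) had less. Together these were 1053 windows (10.4%). Without the RZ library of P10 pool 2 they were 707 (6.96%), and the smallest adjusted p was 0.589 (limma). Without the P1 RZ library, which takes that zone out, they were 511 (5.03%). The count rose in 2 of these fits, to 1113 without the P1 IZ library and 1083 without the RZ library of P10 pool 3. All 6 P10 libraries lay above all 3 P1 libraries in 449 windows (4.42%) and below them in 620 (6.1%). Of the regions, which do not overlap each other, 0 of 12490 passed the threshold (0%). At an unadjusted p under 0.05, 253 (2.03%) had more and 602 (4.82%) had less signal in P10, together 855. Without the RZ library of P10 pool 2 these were 609 (4.88%), with a smallest adjusted p of 0.736 in place of 0.196 (limma). Leaving out 1 library in turn gave 537 to 949 regions, the fewest without the P1 RZ and the most without the P1 IZ library. With limma-trend in place of voom, again 0 windows and 0 regions passed, and 325 windows and 326 regions had an unadjusted p under 0.05. In a fit of the 9 libraries alone, with terms for zone and age and with zones of the same hearts taken as separate samples, 360 windows passed, 120 of them with more and 240 with less signal in P10, and 47 regions. The P1 group is 1 pool, so the spread had to be borrowed from the other groups of the series, and an exact permutation of the 3 pools could not give a p below 0.333.

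The size of the difference can be read against the distance between pools. The median window differed by 0.166 on the log2 scale between P10 pools 2 and 3, by 0.228 between P10 pool 2 and the P1 pool, and by 0.212 between P10 pool 3 and the P1 pool. For regions these distances were 0.288, 0.338 and 0.336. Both P10 pools lay farther from the P1 pool than from each other on this measure, which was not tested.

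Among windows with more signal in P10, the 5 with the smallest unadjusted p were Cep170, Tnfaip8, Tgfbr2, Nfatc1 and Mef2c, and in all 5 every P10 library lay above every P1 library. They were picked by p, with the same sign in each zone, from these same libraries, so this separation is no separate support. Of all windows, 449 (4.42%) had it. Signal is given as CPM, the count of pairs scaled to the same library total, with a pair counted in every window that holds it. Mef2c (chr13:83504034-83667080), a transcription factor of muscle and of macrophages and microglia, had 178, 170 and 176 CPM in the P1 IZ, BZ and RZ. In P10 it had 254 at the lowest, 291 at the median and 356 at the highest. The P1 libraries were low and close together, and the log2 difference was 0.79 (SE 0.212, adjusted p = 0.144, limma). Tgfbr2 (chr9:116084293-116175360), a receptor subunit for TGF-beta, had 174, 163 and 184 CPM in P1 and 214, 282 and 321 as lowest, median and highest value in P10. Its log2 difference was 0.66 (SE 0.175). No P10 library reached down to the P1 range. Nfatc1, a calcium-regulated transcription factor that drives osteoclast formation, had 156 to 187 CPM in P1 and 234 to 304 in P10, a log2 difference of 0.60 (SE 0.16). Tnfaip8, a regulator of cell death and lipid signals, had 256 to 344 CPM in P1 and 376 to 479 in P10, a log2 difference of 0.52 that was 0.34 without the P1 BZ library. Cep170, a centrosome protein, had 172 to 201 CPM in P1 and 250 to 333 in P10. Of these 5 windows, that of Mef2c shares no region with the window of another gene. Without the RZ library of P10 pool 2, Mef2c stood at 0.70. With sequencing batch as a term in the fit, Mef2c stood at 0.09 in place of 0.79, Cep170 at 0.28 in place of 0.74, Tnfaip8 at 0.19 in place of 0.52, Tgfbr2 at 0.43 in place of 0.66 and Nfatc1 at 0.49 in place of 0.60. P10 pool 1 of day 7, which was sequenced on the lanes of the P1 pool, gave 0.38, 0.28, 0.28, 0.52 and 0.41 for the same 5 genes against these P1 libraries.

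Among windows with less signal in P10, the first 5 were F7, B3gnt8, Ahdc1, Grap2 and Ptprcap. They were picked in the same way, and in 620 of all windows (6.1%) every P10 library lay below every P1 library. Grap2 (chr15:80572594-80652854), an adaptor of leukocyte receptor signalling, had 40.5, 39.8 and 38.9 CPM in the P1 IZ, BZ and RZ. In P10 it had 3.91 at the lowest, 13.2 at the median and 21.1 at the highest. The groups did not overlap, and the log2 difference was -1.83 (SE 0.458, adjusted p = 0.141, limma). It was -1.51 without the RZ library of P10 pool 2. Ptprcap, which binds the leukocyte phosphatase CD45, had 366, 380 and 415 CPM in P1 and 211, 270 and 319 as lowest, median and highest value in P10. Its log2 difference was -0.52 (SE 0.131), -0.46 without that library and -0.34 without the P1 RZ library, and its window shares regions with those of 15 other genes. F7, coagulation factor VII, varied within P10: it had 62.3, 79.5 and 72.8 CPM in P1, 66.2 and 62.0 in the IZ and BZ of P10 pool 2, 9.81 in the RZ of that pool, and 8.83 to 19.6 in pool 3. One P10 library lay inside the range of P1, and the log2 difference was -1.53 with the RZ library of pool 2 and -1.44 without it. Without the P1 RZ library it was -0.87. Ahdc1, an AT-hook DNA-binding protein, had 245 to 289 CPM in P1 and 94.8 to 238 in P10, and its log2 difference was -0.70 with and -0.51 without that library. B3gnt8, a glycosyltransferase, had 171 to 261 CPM in P1 and 104 to 150 in P10, and its log2 difference was -0.64 with and -0.53 without the RZ library of P10 pool 2. The window of B3gnt8 shares regions with those of 7 other genes, Tgfb1 among them, and the windows of F7, Ahdc1 and Grap2 with those of 3 each. The signal of these windows is therefore not particular to the named gene.

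**Figure D1:**
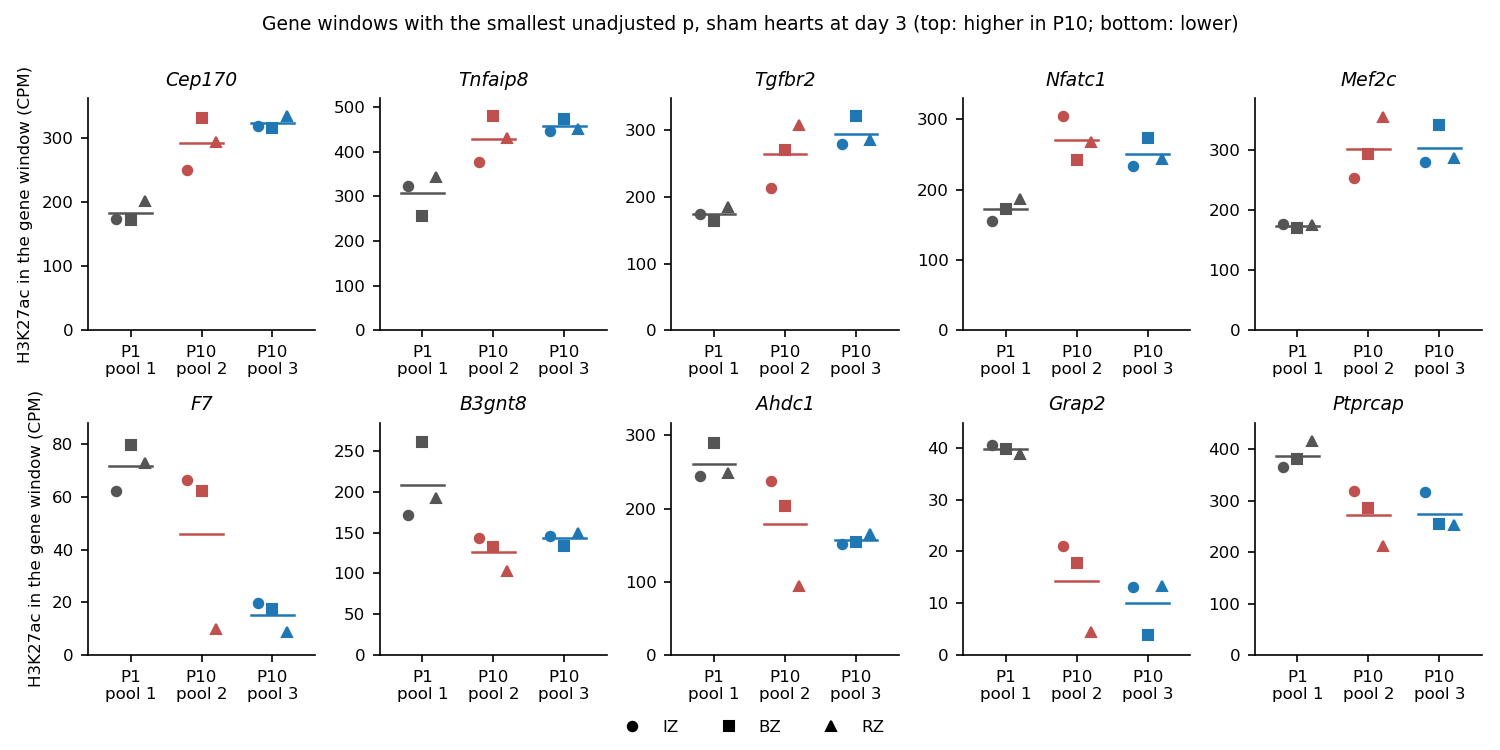
H3K27ac signal (CPM, linear axis from 0) of the 10 gene windows with the smallest unadjusted p, in each library of the P1 pool, P10 pool 2 and P10 pool 3. Symbols give the zone and lines the mean of a pool. In Mef2c the 3 P1 libraries lie between 170 and 178 and the P10 libraries between 254 and 356, while F7 spreads from 8.83 to 66.2 within P10. With sequencing batch as a term the log2 difference of Mef2c was 0.09 in place of 0.79.

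Single regions were named by the same rule, except that those on chromosomes 18, X and Y were left out, and several of them rest on few pairs. The Irf1 region (chr11:53758001-53790500) lies at Irf1, a transcription factor of the interferon response, with its strongest bin 6.3 kb before the start of that gene. It had 596, 651 and 575 CPM in the P1 IZ, BZ and RZ and 309, 372 and 417 as lowest, median and highest value in P10. All P10 libraries lay below the P1 range, and the log2 difference was -0.75 (SE 0.175, adjusted p = 0.196, limma). It was -0.67 without the RZ library of P10 pool 2. Galk1 (chr11:116010001-116015500), a galactose kinase, had 12, 12 and 27 pairs in P1 and 2 to 7 in P10, which is 55.9 to 103 CPM against 8.73 to 44.5 (log2 difference -1.99, SE 0.457). An exonic region at Mmp14 (chr14:54440501-54445000), a membrane-bound matrix protease, had 34.3 to 60.6 CPM in P1 and 0 to 22.2 in P10. Tmem120a (242 to 275 against 57.5 to 195 CPM) and F10, which shares its region with F7 (154 to 195 against 24.4 to 161 CPM), completed the first 5 on this side, and 1 P10 library lay within the P1 range of F10. The log2 difference at F10 was -1.47, and -0.82 without the P1 RZ library. Of these 5 regions, all but that at Mmp14 passed the threshold in a fit of the 21 sham libraries alone, where P1 is still 1 pool.

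On the other side stood regions at Nudt9, Clasp2, Sdccag8, G3bp2 and Rnf150. The Sdccag8 region lies inside the window of Cep170 and had 415 to 480 CPM in P1 and 589 to 801 in P10, with a log2 difference of 0.71 (SE 0.187). The other 4 rest on few pairs. An intronic region of Clasp2 (chr9:113792001-113794000) had 0, 2 and 0 pairs in the P1 IZ, BZ and RZ and 4 to 14 in P10, and a region in an intron of Rnf150 (chr8:82995501-82998000) had 1, 1 and 0 against 3 to 11. Nudt9 and G3bp2 had 0 pairs in the P1 BZ, the shallowest P1 library, and 7 to 15 in the IZ and RZ. The fitted log2 differences of these 4 (1.92 to 2.67) depend on those low counts, and without the P1 BZ library those at Nudt9 and G3bp2 were 0.84 and 0.74 in place of 2.09 and 1.92.

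Regions with more and with less signal in P10 at an unadjusted p under 0.05 were described by place and sequence, with no test. A gene start lay in the region or within 1 kb of it for 49.4% of the 253 with more signal, 47.5% of the 602 with less and 53.7% of all 12490. The median distance from the strongest bin to the nearest start was 6892 bp, 7249 bp and 1989 bp. Median GC content of the 300 bases around that bin was 53.3%, 55.7% and 56.3%. The AP-1 motif TGANTCA was in 9.49% of regions with more, 13.5% of those with less and 8.60% of all regions. The PU.1 motif GAGGAAGT, that of the master factor of myeloid cells, was in 8.30%, 4.82% and 5.48%. C/EBP (TTGCNNAA) was in 11.9%, 8.47% and 9.14%, MAF (TGCTGAC) in 7.51%, 5.15% and 5.55%, RUNX (TGTGGT) in 18.6%, 21.9% and 17.8%, and KLF in 3.95%, 6.98% and 4.19%. Both strands of the same 300 bases were searched, and 1 sequence can hold several motifs. The MEF2 motif TATTTATAG was in 0.395%, 0.498% and 0.320%, which are 1, 3 and 40 regions. IRF (GAAANNGAA) was in 7.11%, 7.81% and 7.23%, and NF-kB (GGANTTTCC) in 0.79%, 1.16% and 1.24%. NR4A (AAAGGTCA) was in 1.58%, 1.33% and 1.32%, and CTCF (CNAGGNGGC) in 7.5%, 8.0% and 8.7%.

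Gene lists came next, of which some members were taken from the study's own description of its cell classes, so their direction is not independent evidence. No listed gene passed the threshold at day 3. Of 16 resident macrophage genes 15 could be tested, 14 lay above 0, and 3 of the 15 had an unadjusted p under 0.05, all with more signal in P10. Of all windows 49.5% lay above 0 and 3.56% had more signal at that unadjusted p. The median log2 difference of the 15 was 0.38, against a median of -0.003 over all windows. The 16th gene, Timd4, a receptor for dying cells, was tested on all pairs in its window and stood at -0.25 (SE 0.366). C1qa, C1qb and C1qc stand side by side, share every pair and are 1 measurement that counts 3 times among the 14, with 145, 90.6 and 127 CPM in P1 and 79.8 to 274 in P10. Cd163, the haemoglobin scavenger receptor, had 18.7, 28.7 and 40.2 CPM in the P1 IZ, BZ and RZ. In P10 it had 30.1 at the lowest, 52.6 at the median and 85.0 at the highest. One P10 library, the IZ of pool 2, lay within the P1 range, and the log2 difference was 0.91 (SE 0.357, adjusted p = 0.355, limma). Gas6, a ligand that bridges dying cells to phagocytes, had 14.0, 8.84 and 17.6 CPM in P1 and 16.6, 30.9 and 56.7 as lowest, median and highest value in P10 (log2 difference 1.21, SE 0.479). The IZ library of pool 2 was again within the P1 range. Lyve1, a hyaluronan receptor of macrophages beside vessels, had 91.9, 66.3 and 91.6 CPM in P1 and 94.9 to 166 in P10, with no overlap and a log2 difference of 0.50 (SE 0.241). Without the RZ library of P10 pool 2, Cd163, Gas6 and Lyve1 stood at 0.80, 1.03 and 0.39. Since the cells of a library are summed, fewer cells of a type and less signal per cell cannot be told apart.

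By zone, the median log2 difference of the resident list was -0.15 in the IZ, 0.54 in the BZ and 0.52 in the RZ, while the median of all windows was -0.02 to -0.006 in each zone. The IZ library was the lowest of its pool for 12 of the 15 genes tested in P10 pool 2, all but Lyve1, Folr2 and Pf4, and for 12 of 15 in P10 pool 3, all but Mrc1, F13a1 and Stab1, with C1qa, C1qb and C1qc counted as 3. In the P1 pool the IZ library was the lowest for Folr2, Mrc1 and Cd163 only. No gene of the list passed the test of the zone difference.

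Ly6c-low monocyte genes lay on the other side, while Ly6c-high monocyte genes were mixed. All 8 Ly6c-low monocyte genes were below 0 (median -0.40), and 3 of them had an unadjusted p under 0.05. Of all windows 50.5% lay below 0 and 6.8% had less signal at that unadjusted p. Ace, a marker of this class in the paper, had the lowest log2 difference of the 8 (-1.13) but went both ways within P10. It had 18.7, 26.5 and 30.1 CPM in the P1 IZ, BZ and RZ. In P10 pool 2 it had 63.2 in the IZ and 37.4 in the BZ, above all P1 libraries, and 7.63 in the RZ. In P10 pool 3 it had 1.96 to 6.54. With sequencing batch as a term Ace stood at 0.10, while P10 pool 1 of day 7, on the lanes of the P1 pool, gave -1.41. Cd300e, an activating receptor of patrolling monocytes, had 60.8, 68.5 and 69.0 CPM in P1 and 34.6, 43.8 and 54.8 as lowest, median and highest value in P10, with no overlap and a log2 difference of -0.60 (SE 0.274). Treml4 had 43.6, 70.7 and 61.5 CPM in P1 and 10.9 to 61.7 in P10, and its log2 difference was -0.86 with and -0.56 without the RZ library of P10 pool 2. Without the P1 RZ library it was -0.27, and without the P1 IZ library -1.36. Spn, which codes for CD43, had 102 to 141 CPM in P1 and 63.2 to 106 in P10 (-0.52, -0.43 without the RZ library of P10 pool 2, -0.27 without the P1 RZ library and -0.10 with sequencing batch as a term). With pairs outside regions included, the 8 genes together had 2079 to 2134 CPM of all unique pairs in P1 and 1453 to 1992 in P10, without overlap. Among the 24 lists, the sums of the Arg1 macrophage, interferon response, fetal haematopoiesis and T and NK cell genes did not overlap either. All of these had less signal in P10, so the separation is not particular to Ly6c-low monocyte genes. Of 8 Ly6c-high monocyte genes 4 could be tested and were below 0, with a median of -0.08. The other 4 were tested on all pairs in their windows, where Chil3 stood at 0.54 (SE 0.599), Ly6c2 at -0.59 (SE 0.378), Vcan at -0.10 and Fn1 at -0.08. The 8 genes together had 779 to 969 CPM of all unique pairs in P1 and 507 to 1024 in P10, with overlap. Plac8 had 93.5, 117 and 99.1 CPM in P1 and 28.3, 59.9 and 125 as lowest, median and highest value in P10, a log2 difference of -0.72 (SE 0.262, adjusted p = 0.311, limma). It was -0.61 without the RZ library of P10 pool 2, -0.22 without the P1 RZ library, -0.47 without P10 pool 3 and -1.07 in the fit that left out the P1 IZ library. By zone the Ly6c-high median was 0.43 in the IZ, -0.26 in the BZ and -0.94 in the RZ, and the Ly6c-low median was 0.02, -0.14 and -0.64.

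Genes of antigen presentation and of the interferon response were next. Of 7 MHC class II genes 6 were below 0 (median -0.33), and 3 had an unadjusted p under 0.05, against 6.8% of all windows with less signal at that p. H2-DMa and H2-DMb1, 2 of these 3, are neighbours whose windows overlap, with 228 and 227 pairs in the P1 IZ, and are not separate measurements. H2-DMb1, a subunit of the peptide loading factor H2-DM, had 354, 331 and 339 CPM in P1 and 246, 274 and 321 as lowest, median and highest value in P10. The groups did not overlap, and the log2 difference was -0.33 (SE 0.121), and -0.21 without P10 pool 2. H2-Eb1, a class II chain, had 30.1 to 44.2 CPM in P1, 11.8 to 15.3 in P10 pool 2 and 27.4 to 37.6 in P10 pool 3, so that the lowest values were those of 1 pool. Its log2 difference was -0.94, -0.23 without P10 pool 2 and -1.43 without P10 pool 3. The 7 genes together had 1523 to 1691 CPM of all unique pairs in P1 and 1124 to 1717 in P10, with overlap. Of 8 interferon response genes that could be tested 6 were below 0 (median -0.40), against 50.5% of all windows, and 3 had less signal at an unadjusted p under 0.05, against 6.8%. The Irf1 window had 249, 281 and 252 CPM in P1 and 170, 180 and 209 as lowest, median and highest value in P10. Rsad2, the antiviral enzyme viperin, had 48.3, 61.9 and 54.0 CPM in P1 and 26.5, 30.5 and 34.4 in the same order in P10. Neither gene overlapped between groups, and the log2 differences were -0.51 (SE 0.149) and -0.81 (SE 0.275). Irf7, the factor that amplifies interferon production, had 30.9 to 40.2 CPM in P1 and 10.9 to 42.1 in P10 (-0.75, -0.51 without the RZ library of P10 pool 2 and -0.38 without the P1 RZ library). Isg15 did not overlap either, with 84.0 to 93.5 CPM in P1 and 61.0 to 83.4 in P10 (-0.28). With pairs outside regions included, the 11 interferon response genes together had 1482 to 1586 CPM of all unique pairs in P1 and 1104 to 1268 in P10, without overlap.

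Of 15 macrophage transcription factors 11 were above 0, with a median of 0.05. Mef2c, described above, was the highest. Cebpb, a factor of inflammatory activation, had 393, 382 and 413 CPM in P1 and 268, 323 and 367 as lowest, median and highest value in P10, with no overlap and a log2 difference of -0.32 (SE 0.114) that was -0.20 without the P1 RZ library. Of 12 AP-1 and early response genes 6 lay on each side (median -0.007). Fosb, an AP-1 subunit, had 213, 230 and 238 CPM in P1 and 130, 140 and 217 in P10 (lowest, median, highest), with 1 P10 library, the IZ of pool 2, in the P1 range. Its log2 difference was -0.60 (SE 0.171, adjusted p = 0.167, limma). Klf6, an early response zinc finger factor, had 132 to 151 CPM in P1 and 160 to 216 in P10 (0.41, and -0.20 with sequencing batch as a term). Of 7 growth factor genes 3 were above and 4 below 0 (median -0.12), and Tgfb1 had 394 to 428 CPM in P1 and 299 to 368 in P10 (-0.29, -0.25 without the RZ library of P10 pool 2 and 0.05 in windows of 10 kb around the start). The Tgfb1 window shares regions with that of B3gnt8, so they are not separate measurements.

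The remaining lists had no gene past the threshold. In regions the median was -0.07 for 13 chemokine and cytokine genes, -0.23 for 6 S100a9 monocyte and granulocyte genes, -0.24 for 5 Arg1 macrophage genes, 0.07 for 7 glucocorticoid response genes, -0.12 for 7 proliferation genes and -0.12 for 8 lipid and iron genes. Members that could be tested only on all pairs in their windows had a median of 0.14 for 5 S100a9 monocyte and granulocyte genes (S100a8 0.06, S100a9 -0.02, Cd177 0.68, Cxcr2 0.14 and Camp 0.21), which is the other side of 0 from the 6 tested in regions. It was -0.34 for 3 Arg1 macrophage genes, 0.15 for 2 growth factor genes, -0.29 for 3 interferon response genes, 0.19 for 2 proliferation genes and 0.31 for 2 lipid and iron genes. Among the glucocorticoid response genes, Klf9 had 17.7 to 34.3 CPM in P1 and 21.3 to 61.8 in P10 (0.69, 0.40 without the P1 RZ library and 1.197 without the P1 IZ library), and the Fkbp5 window had 101 to 132 in P1 and 58.9 to 93.7 in P10 (-0.45, and 0.05 with sequencing batch as a term) with no overlap. In the lipid list Abcg1, a cholesterol exporter, had 79.5 to 105 CPM in P1 and 45.8 to 94.8 in P10 (-0.61, and -0.34 without the P1 RZ library). Of 5 fetal haematopoiesis genes Igf2bp3 could be tested in regions, at 0.06. The other 4 were tested on all pairs in their windows and had a median of -0.54, and Igf2bp2, an RNA-binding protein of fetal cells, stood at -0.73 (SE 0.296, adjusted p = 0.995, limma) with an unadjusted p of 0.018. The 5 genes together had 433 to 450 CPM of all unique pairs in P1 and 305 to 399 in P10, without overlap. The 8 Arg1 macrophage genes together had 835 to 896 CPM of all unique pairs in P1 and 641 to 826 in P10, also without overlap.

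Lists of other cell types were read by their summed signal, pairs outside regions included. None of 6 fibroblast genes could be tested in regions, where together they had 0 to 3 pairs in a P1 library and 1 to 6 in a P10 library, with 5 of the 6 genes at 0 in all 9 libraries. Their sum ran from 115 to 139 CPM of all unique pairs in P1 and from 68.6 to 145 in P10, with overlap, and the 2 that could be tested on all pairs stood at -0.57 (Col1a1, SE 0.465) and -0.92 (Pdgfra, SE 0.597). Summed endothelial genes ran from 699 to 716 CPM of all unique pairs in P1 and from 617 to 799 in P10, B cell genes from 493 to 534 and from 419 to 529, and cardiomyocyte genes from 395 to 440 and from 380 to 555, and each pair of ranges overlapped. Summed T and NK cell genes ran from 487 to 524 in P1 and from 427 to 480 in P10, without overlap, erythroid genes from 194 to 230 and from 155 to 206, and mast cell genes from 122 to 184 and from 102 to 219. The part of these cells in the results was not tested. Summed dendritic cell genes ran from 477 to 626 and from 536 to 730. Flt3, a receptor of dendritic cell progenitors, was the only gene of these lists with an unadjusted p under 0.05: it had 31.2 to 35.3 CPM in P1 and 44.1 to 70.3 in P10, with no overlap and a log2 difference of 0.72 (SE 0.326) that was 0.18 with sequencing batch as a term. Summed resident macrophage genes ran from 2560 to 2991 CPM of all unique pairs in P1 and from 2095 to 4793 in P10.

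**Figure D2:**
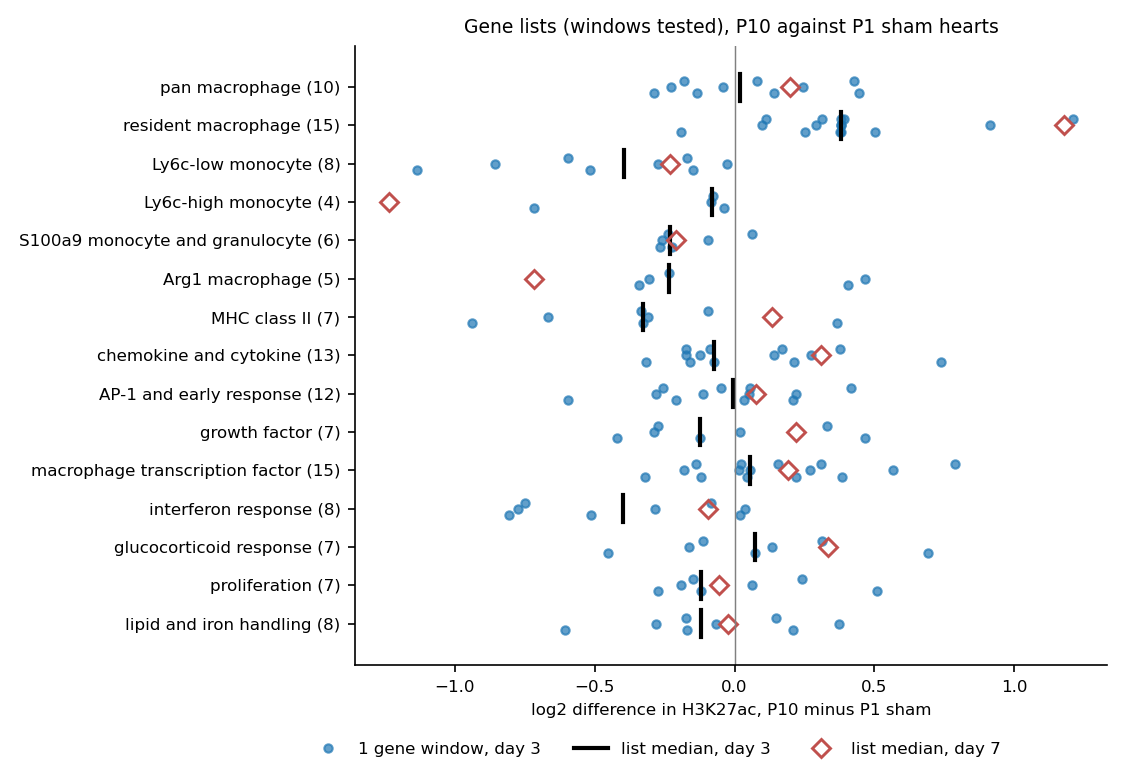
Log2 difference in H3K27ac between P10 and P1 sham hearts for every tested gene of 15 lists (points, day 3), the list median at day 3 (bar) and at day 7 (open diamond). The number of windows tested stands beside each list. The resident macrophage median lies at 0.38 at day 3 and 1.18 at day 7, the Ly6c-high monocyte median at -0.08 and -1.23.

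The same age contrast can be made in sham hearts at day 7 from 12 other libraries, of which 6 are P1 and 6 are P10. Their hearts were taken at an age of 8 days (P1) or 17 days (P10). No sequencing batch holds both ages of these libraries, so age at day 7 cannot be told apart from batch either. The IZ and RZ libraries of P1 pool 1 were shallow there, with 48077 and 122895 pairs against 281821 to 520638 in the other 10, and the scaling factor of that IZ library over regions was 1.62. In this contrast 274 windows had more signal in P10 (2.7%) and 265 had less (2.61%) at an adjusted p under 0.05. Without the 2 shallow libraries these were 203 and 225. The number and the balance depend on the scaling and the counting: scaled to all deposited pairs 16 windows had more and 2 had less, and with all pairs in the window 36 had more and 14 had less. At day 7, 12 of the 15 resident macrophage windows passed with more signal in P10, and the list median was 1.18. Cd163 stood at 0.91 at day 3 and 1.07 at day 7 and Gas6 at 1.21 and 1.29, side by side. Mgl2, a lectin of resident macrophages, stood at 0.29 and 1.58, and F13a1, a coagulation factor XIII subunit, at 0.10 and 1.42. Mgl2 had 52.7 to 63.9 CPM in the P1 libraries of day 3 and 54.2 to 108 in P10. Stab1, a scavenger receptor, stood at -0.19 and 0.55. The test of the difference between days passed for no window (0 of 10159, 0%), with 1184 at an unadjusted p under 0.05 (24 passed without the 2 shallow day 7 libraries), and it was closest in this list at Stab1 (adjusted p = 0.0831, limma). With limma-trend it also passed for 0 windows, with 527 at an unadjusted p under 0.05.

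**Figure D3:**
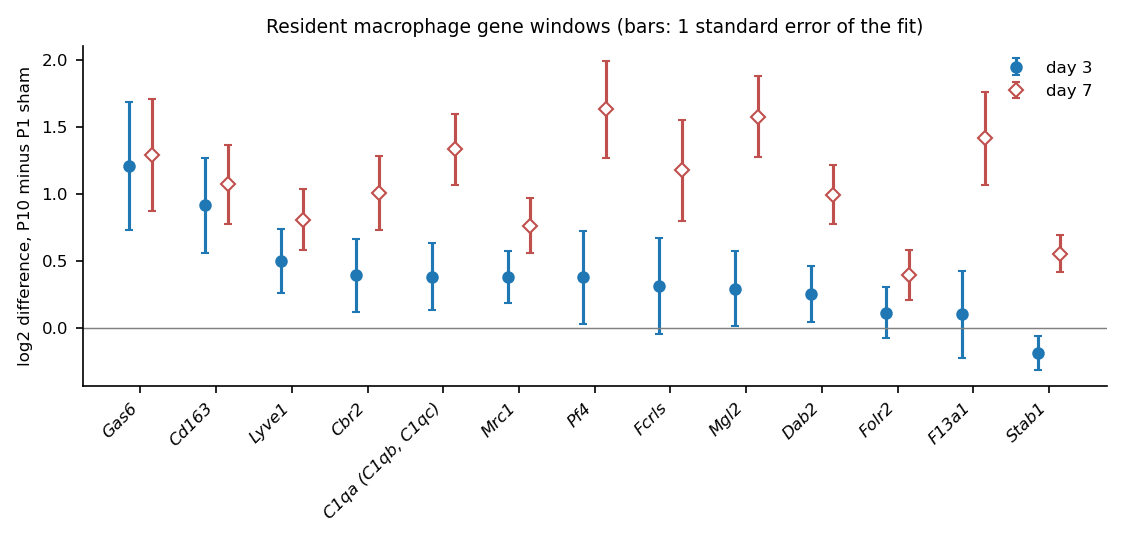
Log2 difference between P10 and P1 sham hearts in the windows of resident macrophage genes at day 3 (filled circles) and day 7 (open diamonds), with 1 standard error of the fit. C1qa stands for 3 genes that share all pairs. Cd163 lies at 0.91 and 1.07 and Gas6 at 1.21 and 1.29, while Mgl2 and F13a1 lie at 0.29 and 0.10 at day 3 and at 1.58 and 1.42 at day 7.

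Windows that passed at day 7 were then read at day 3. Of the 274 with more signal in P10 at day 7, 168 (61.3%) were above 0 at day 3, against 49.5% of all windows, and their median was 0.09. Of the 265 with less signal, 211 (79.6%) were below 0 at day 3, against 50.5% of all windows, and their median was -0.26. Regions gave 134 of 199 (67.3%, against 47.9% of all regions; median 0.15; the 199 are 1.59% of the regions tested) and 140 of 168 (83.3%, against 52.1%; median -0.46; 1.35%). Read the other way, of the 691 windows with less signal in P10 at day 3 at an unadjusted p under 0.05, 372 (53.8%) were below 0 at day 7, against 48.3% of all windows, with a median of -0.02. Of the 362 with more signal at day 3, 246 (68.0%) were above 0 at day 7, against 51.7%, with a median of 0.20. The direction with the larger share of shared signs therefore depends on the day that chose the windows. For regions the shares at day 7 were 63.5% of the 602 with less (46.9% of all) and 70.0% of the 253 with more signal at day 3 (53.1% of all). F7, at -1.53 and -1.87, Grap2, at -1.83 and -1.40, and Ahdc1, at -0.70 and -0.59, were the 3 of the 10 windows first named above that passed at day 7. Cep170 stood at 0.74 and -0.01. The libraries of both days are separate, but P10 pool 2 of each day was sequenced in 1 batch, and P10 pool 1 of day 7 ran on the lanes of the P1 pool of day 3.

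**Figure D4:**
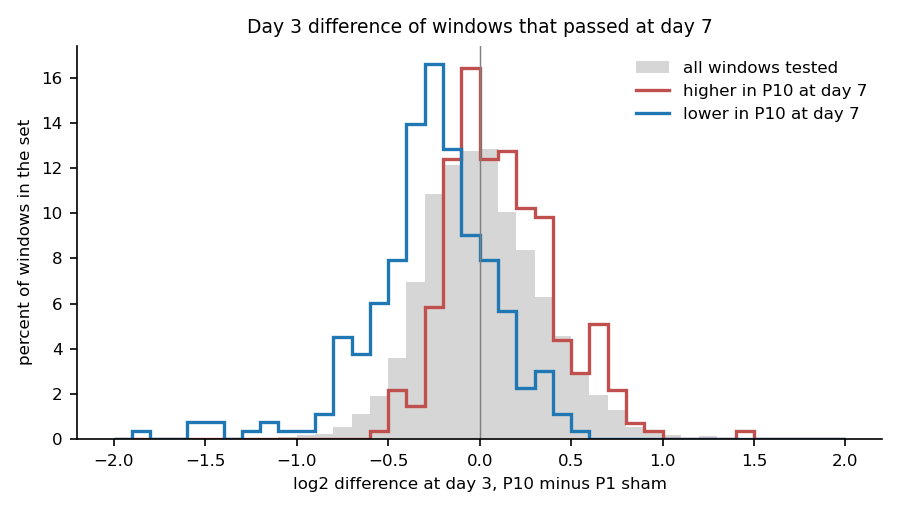
Distribution of the day 3 log2 difference (P10 minus P1 sham, bins of 0.1) over all windows tested, the 274 windows with more and the 265 with less signal in P10 at day 7, each as percent of its set. The windows with less signal at day 7 lie to the left at day 3 (median -0.26), and those with more lie near 0 (median 0.09).

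The age difference itself differed between days at 2 of 12490 regions (0.016%). The Med11 region (chr11:70431001-70476000) holds the starts of Med11, a Mediator subunit, Cxcl16, a chemokine of macrophages, Arrb2, a beta-arrestin, and Zmynd15. At day 3 it had 783, 933 and 858 CPM in the P1 IZ, BZ and RZ and 659, 836 and 1026 as lowest, median and highest value in P10. At day 7 it had 392 to 627 CPM in 6 P1 libraries and 927 to 1220 in 6 P10 libraries. The ages overlapped at day 3 and not at day 7, with log2 differences of -0.07 and 1.04, and the difference between days was -1.10 (SE 0.208, adjusted p = 0.00638, limma). The Fkbp5 region (chr17:28509501-28528500) covers the start of Fkbp5, a co-chaperone and known target of the glucocorticoid receptor. At day 3 it had 182, 222 and 293 CPM in P1 and 101, 171 and 188 as lowest, median and highest value in P10. At day 7 it had 55.6 to 176 in P1 and 167 to 404 in P10. Of the 6 P10 libraries 5 lay below all P1 libraries at day 3, while at day 7 the ages overlapped in 1 P10 library (log2 differences -0.57 and 1.29), and the difference between days was -1.86 (SE 0.389, adjusted p = 0.0295, limma). Leaving out 1 library in turn gave 0 to 3 such regions. Without the BZ library of the P1 pool the adjusted p was 0.0667 for both regions, and without the BZ library of P10 pool 2 it was 0.0726 for Med11 and 0.0745 for Fkbp5. Fkbp5 also missed the threshold without the RZ library of the P1 pool (0.213), the IZ library of P10 pool 3 (0.0774) or the RZ library of P10 pool 2 (0.159), without P10 pool 3 (0.0736), with 1 pair per position (0.0556) and with sequencing batch as a term (0.109), where its day 3 difference was -0.04. Med11 kept its call with batch as a term (0.00843). This term held the batch of P1 pool 2 of day 7 at the level of the batch of the P1 pool of day 3. A step between these batches was therefore not taken out of the difference between days. Without the 2 shallow day 7 libraries 7 regions passed, Med11 (0.0018) and Fkbp5 (0.00839) among them. Without P10 pool 2 as a whole, 0 regions passed, and limma-trend also called 0, with 537 at an unadjusted p under 0.05. The voom test gave 1048 at an unadjusted p under 0.05.

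**Figure D5:**
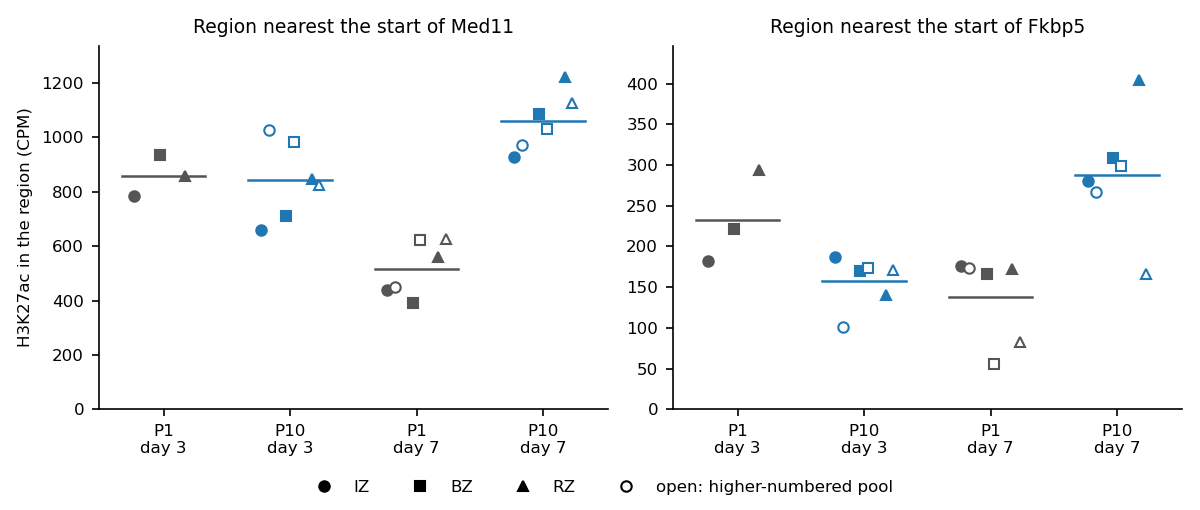
H3K27ac signal (CPM, linear axis from 0) of the regions nearest the starts of Med11 and Fkbp5 in each sham library, by age and day. Symbols give the zone, open symbols the higher-numbered pool of a group, and lines the group mean. At Med11 the P1 mean is 858 at day 3 and 515 at day 7, and the P10 mean 842 and 1060.

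The age difference varied by zone at 1 of 10159 windows (0.00984%), that of Tab2, an adaptor of inflammatory kinase signalling, which was chosen after its values were seen. It had 19, 0 and 35 pairs in the P1 IZ, BZ and RZ and 11 to 37 in P10 (adjusted p of the zone difference = 1.04e-05, limma). Of 42 libraries, 1, the P1 BZ, had no pair in regions there, although it held 21 pairs in the window outside regions. With all pairs in the window no window passed this test (smallest adjusted p = 0.9998, limma), and none did with no filter on low counts (0.227). Against a floor of 3 pairs, the P10 BZ libraries had at least 5.49-fold and 4.13-fold more signal. No region passed the test of the zone difference (0 of 12490, 0%), with 363 at an unadjusted p under 0.05. Taken by zone, 0 windows passed in the IZ, 1 in the BZ (Tab2) and 0 in the RZ, with 211, 441 and 949 at an unadjusted p under 0.05.

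The hearts of P10 pool 1 of day 7 were taken at 17 days of age, against 13 days for the P10 libraries of day 3. Those of the P1 pool were taken at 4 days. This P10 pool ran on the lanes of the P1 pool and had fragments of 196 to 201 bp. That sets it beside the P1 pool in batch but not in day. Against the same P1 libraries it gave a log2 difference of 1.18 for Cd163, 1.42 for Gas6 and 0.58 for Lyve1, beside 0.91, 1.21 and 0.50 for the P10 libraries of day 3. It gave -1.75 for Grap2, -1.88 for F7, -0.53 for Irf1 and -1.01 for Rsad2, beside -1.83, -1.53, -0.51 and -0.81, and 0.03 for Fosb, beside -0.60. It gave -0.16 for Ptprc, which codes for CD45, beside 0.43, and -0.25 for Ptprcap, beside -0.52. Treml4 stood at -1.49 and Plac8 at -1.31, beside -0.86 and -0.72, and Spn at -0.26 and Cd300e at -0.38, beside -0.52 and -0.60. Irf7 stood at -0.20, Isg15 at -0.09, H2-Eb1 at -0.37, H2-DMb1 at -0.13 and Cebpb at -0.13, beside -0.75, -0.28, -0.94, -0.33 and -0.32. Tgfb1 stood at -0.02, Klf6 at 0.02, the Fkbp5 window at 0.32 and Klf9 at 1.41, beside -0.29, 0.41, -0.45 and 0.69. Of the regions, Sdccag8 stood at 0.32, Galk1 at -0.49 and Mmp14 at -0.39, beside 0.71, -1.99 and -2.25, and Irf1 at -0.49, beside -0.75. The Fkbp5 region stood at 0.52, beside -0.57. In this comparison on the same lanes 5 windows passed, all with less signal in P10 (among them 1600014C23Rik, Coro2a, F830045P16Rik and Pdcd1lg2, named after their values were seen), with 771 at an unadjusted p under 0.05, and 1 region passed, at Gpr55, also with less. Coro2a stood at -0.80 there and at -0.44 at day 3. Both comparisons use the P1 libraries and are set side by side only. With sequencing batch as a term in the fit, no window passed, and 631 had an unadjusted p under 0.05. Gas6 then stood at 1.33, Cd163 at 0.82, Grap2 at -2.10, F7 at -1.52, Irf1 at -0.45 and Rsad2 at -0.80. Fosb stood at -0.14 and Ptprc at -0.14, beside -0.60 and 0.43 without the term. Treml4 stood at -1.58, Plac8 at -1.11, Cebpb at -0.21 and Ptprcap at -0.34, beside -0.86, -0.72, -0.32 and -0.52. Of the regions, Mmp14 stood at -0.78, Sdccag8 at 0.30, Tmem120a at -0.72 and Nudt9 at 1.47, beside -2.25, 0.71, -1.11 and 2.09. The resident macrophage median was 0.22 with the term and 0.38 without it, the Ly6c-low monocyte median -0.13 and -0.40, the Ly6c-high monocyte median -0.89 and -0.08, and the interferon response median -0.34 and -0.40.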

How the data were processed

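The deposited files are BED lists of mapped reads, 1 per library, whose value column is the aligner's mapping quality, a score of 21 to 44 that the authors deposited with each read and that was not used as a measurement. The submitters' processing notes name Bowtie2, Picard, MACS2 2.2.7.1, deepTools and the mm10 build. Reads of 1 name were joined to pairs, and repeated lines were dropped. Regions were runs of 500 bp bins at 4 times the mean, joined within 1000 bp (27160 regions, median 1500 bp). They were called on all 42 P1 and P10 libraries, sham and infarcted, with each group at equal weight. Pairs in regions were summed per region and per window of 21938 protein-coding genes. Windows were tested from a mean of 10 pairs upward (10159), regions from 3 (12490).

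Counts were scaled by TMM factors and fitted with limma 3.58.1 (voom, R 4.3.3, statmod 1.5.0) with 24 group means and 14 pools of hearts as a random effect. The contrast was the mean over 3 zones of P10 minus P1 sham at day 3, tested two-sided at an adjusted p of 0.05. The fit was tested on simulated data. Depth (368724 to 853744 pairs per library) limits low windows. The 10 named windows and 10 named regions are the first 5 per direction by unadjusted p with the same sign in each zone, without predicted genes. Windows that share a region with one already named were left out, as were regions on chromosomes 18, X and Y. From each list, genes past the threshold were to be named, and otherwise those with the smallest unadjusted p. Further list genes were named after their values were seen. The comparison, the lists and the tests were chosen with earlier results of these data known. Alternatives were other scalings, filters, region thresholds, windows and sets of libraries. Sequencing batch as a term, 1 pair per position, the comparison on the same lanes and the fit without the 2 shallowest day 7 libraries were added after seeing the data. Scripts ran in Python 3.11.15 with pandas 2.3.3 and numpy 2.4.6, and figures were drawn with matplotlib 3.10.9.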

Additional observations from a re-analysis of the deposited data

Results flagged for a closer look

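Among the 6 P10 sham libraries of day 3, 68 values were examined for a single library far from the other 5 by Dixon's test, which marks about 1 in 20 such groups by chance. The mitochondrial share was 1.33% in the RZ library of pool 2, and the next highest was 0.552%. B3gnt8 had a lowest value of 104 CPM (next 133) and Tgfb1 of 299 CPM (next 342), both in that same library, and their windows share regions. The Fkbp5 window had a lowest value of 58.9 CPM (next 84.3), in the IZ library of pool 3. Fosb had a highest value of 217 CPM (next 154), in the IZ library of pool 2. Ms4a2, a mast cell gene, had a highest value of 34.4 CPM (next 17.7).

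The age difference varied between zones at the Tab2 window (adjusted p = 1.04e-05, limma), where the P1 BZ library held 0 pairs in regions. It differed between days at the region of Med11 (adjusted p = 0.00638, limma) and at the region of Fkbp5 (adjusted p = 0.0295, limma).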

How the results depend on the processing

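Of 66 named results, 52 kept their sign under each alternative run. Ace was not among these 66, and its log2 difference was 0.10 with batch as a term in place of -1.13. The comparison on the same lanes was not among the runs counted here. There Cd68 (0.07 in place of -0.29), Elane (0.01 in place of -0.27) and Fosb also changed sign. The count of windows past the threshold at day 3, 0, was 360 with the 9 libraries alone, 1 with windows of 10 kb around the start (Galk1), and 0 to 6 when 1 library was left out (6 without the P1 IZ). For regions it was 0, and 47 with the 9 libraries alone, 4 with the 21 sham libraries alone, 1 with no filter and 0 in each leave-one-out fit. Those 4 were the regions at Irf1, Galk1, F10 and Tmem120a named above. The count of windows whose age difference differed between days, 0, was 91 with no random effect of pool, 44 with no filter, 13 with regions at 6 times the mean, 22 without P10 pool 3, 71 with batch as a term, 24 without the 2 shallowest day 7 libraries, and 0 to 30 when 1 library was left out (30 without the IZ and 3 without the BZ library of P10 pool 3). For regions it was 2, and 15 with the 21 sham libraries, 7 with no random effect, 4 with batch as a term (Med11 but not Fkbp5 of the 2), 7 without the 2 shallowest day 7 libraries, 1 without P10 pool 3 and with 1 pair per position, 0 without P10 pool 2, with all-pairs scaling, limma-trend, no filter or the stricter regions, and 0 to 3 when 1 library was left out. The zone difference of 1 window was 0 with no filter and with all pairs in the window. For regions it was 0, and 1 with pairs with both mates only. It also moved from 0 without P10 pool 3, and without the IZ or the RZ library of that pool. At day 7 the 539 windows (274 higher, 265 lower) were 18 (16 and 2) with all-pairs scaling, 815 with no random effect, 334 with limma-trend, 349 with the stricter regions, 50 (36 and 14) with all pairs in the window, 112 with 10 kb around the start and 930 with batch as a term. The batch term held the batch of P1 pool 2 of day 7 at the level of that of the P1 pool of day 3. A step between these batches stays in the day 7 and day difference counts with that term. The causes were not tested.

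No gene passed the threshold at day 3, so every change of sign was bound to be at a gene that missed it. With batch as a term, log2 differences were -0.14 for Ptprc, -0.42 for Il18r1, -0.20 for Klf6, 0.051 for Fkbp5, 0.0006 for Birc5, -0.19 for Tnni3, 0.56 for Klf1, 0.0243 for Ms4a2 and -0.072 for Clec9a. With 10 kb around the start they were 0.0171 for H2-DMa, 0.051 for Tgfb1, 0.17 for Birc5 and -0.0461 for Pecam1. Without P10 pool 3 they were 0.14 for Hp, -0.19 for Tnni3 and 0.0476 for Klf1, and without P10 pool 2 -0.0522 for Igf2bp3 and 0.11 for Ms4a2. Klf1 was 0.0574 with all-pairs scaling and 0.0089 with median-of-ratios scaling, and Ms4a2 0.12 with all pairs in the window. Leaving out 1 library gave -0.41 to 0.10 for Hp, -0.043 to 0.20 for Igf2bp3, -0.0835 to 0.15 for Tnni3, -0.23 to 0.13 for Klf1 and -0.56 to 0.0272 for Ms4a2.

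No paired analysis was possible because the P1 pool is numbered 1 and the P10 pools 2 and 3, so the groups share no replicate number. The P1 group is 1 pool, and age cannot be told apart from batch and pool. Depth limits windows and regions of few pairs.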
